A study of Mus musculus with 33 samples.

Results

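Nuclear genes for the subunits of mitochondrial oxidative phosphorylation were described across 9 sorted populations of mononuclear phagocytes from mouse kidney and spleen. They were chosen by name alone: symbols that start with Nduf, then a, b, c, s or v and a digit, the 4 genes Sdha to Sdhd, and symbols that start with Uqcr, with Cox4 to Cox8 or with Atp5, with pseudogene symbols left out. This gave 84 of 24054 gene symbols, 37 for complex I, 4 for complex II, 8 for complex III, 18 for complex IV and 17 for complex V. Some names reach past the classical subunits: Ndufa4 is now placed with complex IV, Cox7a2l with the joining of complexes III and IV, and Atp5s and Atp5sl with assembly. All mice were 10 weeks old, of the C57BL/6 strain and Clec9a-Cre/Cre Rosa-YFP/YFP in every group, so both copies of Clec9a carry Cre also in the populations used as comparators, and YFP marks cells in which Clec9a, a gene of dendritic cell precursors and cDC1, was once active. From kidney, gated as CD45+ Ly6C- MHCII+, came F4/80hi macrophages (CD64+ CD11blow) that were YFP+ (3 libraries) or YFP- (3), CD11bhi cells (CD64+ F4/80low) that were YFP+ (5) or YFP- (2), conventional dendritic cells type 1 (cDC1, CD11c+ CD64- CD24+ YFP+, 6) and type 2 (cDC2, CD11c+ CD64- CD11b+ YFP+, 5). From spleen came red pulp macrophages (RPM, autofluorescent F4/80+ YFP-, 3), cDC1 (CD24+ CD205+ YFP+, 3) and cDC2 (CD11b+ YFP+, 3), both dendritic gates being non-autofluorescent MHCII+ CD11c+.

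Complex I takes electrons from NADH and complex II from succinate. Complex III hands them to cytochrome c, and complex IV passes them to oxygen. Complexes I, III and IV move protons out of the matrix, and complex V, the ATP synthase, lets them back in to make ATP. Complexes I, III, IV and V also hold subunits encoded by mitochondrial DNA, which were not analysed here. Mononuclear phagocytes are known to differ in how far they rely on this pathway and on glycolysis, and a subunit's mRNA level is not a measure of respiration.

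The 33 libraries held 8729224 to 23000575 reads in genes, and 79 of the 84 genes had enough reads to be tested. The other 5 were Ndufs5, Cox7b2 and Cox8c with 0 reads, Cox8b with 2 and Atp5g2 with 130, all by the STAR counts. Xcr1 and Spic, named here from 13 identity markers, went with the gates. Xcr1 averaged 922 CPM (read counts scaled to the size of the library) in kidney cDC1 and 970 in spleen cDC1, against at most 9.26 in any other group. Spic averaged 1850 CPM in RPM, against at most 18.8 in any other group. Other markers did not all set CD11bhi cells apart from cDC2. Cd209a averaged 3773 CPM in CD11bhi YFP- cells and 4136 in CD11bhi YFP+ cells, against 3845 in kidney cDC2. Emr1 averaged 172 and 193 CPM in these CD11bhi groups, below the 306 in spleen cDC2. Fcgr1, at 93.1 and 105 CPM in them, was above the 15.8 in kidney cDC2. Transcripts of the subunit genes are short, with a median of 655 nucleotides against 2702.5 over the 14258 genes tested. In 2 libraries, kidney cDC1 replicate 4 and kidney cDC2 replicate 3, more reads fell on short transcripts, and the mean transcript length over all reads was lowest there, at 2031 and 2068 nucleotides, against 2478 to 3036 in the others. The main counts of called genes are therefore set beside those without these 2 libraries or after a scaling that removes from each library any shift shared by genes of the same transcript length, both chosen after seeing the data. The labels do not say whether libraries of a group came from separate mice, so p-values measure the spread between these samples. Many single genes below, outside a fixed core, were named because they were called without overlap between libraries. For them the lack of overlap is no further support. Reads were counted without strand and only where they mapped to 1 place. For 15 of the genes the authors' RSEM estimate, which shares out multimapping reads, was over 1.5 times the STAR count, and their levels are uncertain. Among them were Atp5g2 and Ndufs5, with RSEM totals of 70052 and 2447, so their STAR counts do not show that they were silent. Cox7b2, Cox8c and Cox8b had RSEM totals of 0, 0 and 2. Also among the 15 were Atp5l, Cox7c, Atp5g1 and Ndufb4, and, of genes named below, Cox7a2l, Atp5h, Uqcrb, Uqcr11 and Ndufa12. A further limit is that 22 of the genes overlap another gene in the files.

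Summed over all 84 genes, the level was highest in kidney cDC1. The sum ranged from 10394 to 23949 CPM with a median of 11732 in the 6 kidney cDC1 libraries, against 7011, 8011, 17618, 9447 and 10384 CPM in the 5 kidney cDC2 libraries. The upper end of each group is the library standing apart. Without these 2 the groups did not overlap, with the lowest cDC1 library at 10394 CPM and the highest cDC2 library at 10384 CPM. In spleen cDC1 the sum was 10228 ± 806 CPM, against 7094 ± 110 CPM in spleen cDC2 (SD, n = 3 each), and these groups did not overlap. RPM held 10481 ± 2275 CPM (n = 3), F4/80hi YFP+ cells 8021 ± 681 and F4/80hi YFP- cells 8005 ± 759 (n = 3 each), CD11bhi YFP+ cells 8494 ± 910 (n = 5) and CD11bhi YFP- cells 8530 ± 1100 (n = 2), and the 4 groups of CD64+ kidney cells overlapped. In TPM, the authors' transcript levels scaled for length, the order was kidney cDC1 at 28351 ± 3744 (n = 6), spleen cDC1 at 24920 ± 2047, RPM at 22602 ± 3386 and spleen cDC2 at 19910 ± 821 (n = 3 each), with the other 5 groups between 17652 and 19669. In bulk samples, fewer cells of a type and less RNA per cell cannot be told apart.

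**Figure D1:**
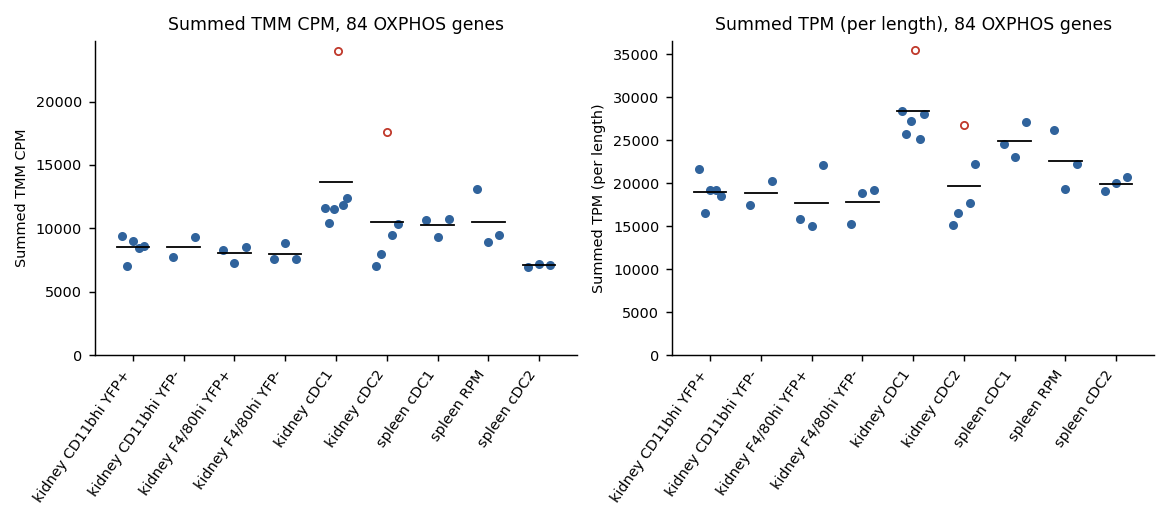
Summed level of the 84 oxidative phosphorylation subunit genes in each library, by group, in TMM-scaled CPM and in TPM, with bars at the group means and the 2 libraries standing apart as open red circles. Kidney cDC1 replicate 4 reaches 23949 CPM and kidney cDC2 replicate 3 reaches 17618 CPM, while the 3 spleen cDC1 libraries lie above the 3 spleen cDC2 libraries on both scales.

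Most subunits have 1 gene, and a few of complex IV and V have paralogs with tissue-restricted use. Cox4i1, the common form of a core-stabilising subunit of complex IV, had among the highest levels per length, with group means of 715 to 1044 TPM. Its paralog Cox4i2, known as the form of lung and of low oxygen, had 6.07, 2.66 and 5.36 CPM in the 3 RPM libraries and at most 0.419 CPM in any library of another group. Cox6a1 had group means of 549 to 1066 TPM, whereas Cox6a2, the heart and muscle form, had 3.49, 7.34 and 8.70 CPM in RPM and at most 1.97 CPM in any library of another group. Cox6a2 lies opposite Itgad, a gene with many more reads in these files, and without strand their reads cannot be told apart. Cox6b2, known from human and mouse as the testis form of the subunit that Cox6b1 otherwise provides, followed another pattern. It had 14.7 and 11.6 CPM in CD11bhi YFP- cells, 6.05 to 11.9 CPM in CD11bhi YFP+ cells and 6.58 to 40.3 CPM in kidney cDC2, where the upper value is replicate 3 and the next is 10.6, against at most 2.46 CPM in any F4/80hi library. Its RPM libraries were at 1.38, 0.714 and 0.615 CPM. Cox6b1 itself had group means of 540 to 818 TPM, so Cox6b2, at 2.71 to 41.4 TPM, was the minor form in every population. Cox7a1, the muscle form, stayed at or below 4.25 TPM in every group mean, and Ndufa4l2, a paralog of Ndufa4, at or below 1.497 TPM.

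Kidney cDC1 had higher levels of many of these genes than kidney cDC2, and spleen cDC1 than spleen cDC2. In kidney 26 of 79 genes were higher and 2 lower in cDC1 by edgeR's quasi-likelihood test with Benjamini-Hochberg adjustment, where 12.5% of all genes were higher and 15.4% lower. In spleen 14 were higher and 1 lower, where 9.90% of all genes were higher and 10.7% lower. The median log2 fold over the 79 genes was 0.45 in kidney and 0.56 in spleen. Both organs shared 12 of the higher genes, which is 46.2% of the kidney list and 85.7% of the spleen list. For the difference between the organs in the cDC1 to cDC2 fold, 0 subunit genes were called by edgeR and 0 by DESeq2, with 1 at an unadjusted p under 0.05, where 6.33% of all genes were called. By complex, 9 of 16 genes of complex V, 4 of 8 of complex III, 9 of 36 of complex I, 3 of 15 of complex IV and 1 of 4 of complex II were higher in kidney cDC1. In spleen cDC1 the counts were 5 of 16, 3 of 8, 4 of 36, 1 of 15 and 1 of 4.

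Atp5b, which encodes the catalytic beta subunit of complex V, ranged from 1338 to 1976 CPM with a median of 1407 in the 6 kidney cDC1 libraries, against 793, 892, 1154, 1103 and 1026 CPM in kidney cDC2. It had 1337, 1334 and 1289 CPM in spleen cDC1, against 900, 844 and 794 CPM in spleen cDC2. In both organs every cDC1 library was above every cDC2 library. The log2 fold was 0.63 ± 0.09 in kidney (SE, adjusted p = 3.26e-06) and 0.64 ± 0.12 in spleen (adjusted p = 0.000226). Within the kidney libraries of the name prefix GS it was 0.59, and within those of the prefix BS 0.68.

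Uqcrc2, a core protein of complex III, ranged from 157 to 247 CPM with a median of 172 in kidney cDC1, against 123, 132, 144, 133 and 144 CPM in kidney cDC2. It had 195, 169 and 175 CPM in spleen cDC1, against 131, 121 and 116 CPM in spleen cDC2, again with no overlap in either organ. The log2 fold was 0.46 ± 0.12 in kidney (adjusted p = 0.00326) and 0.55 ± 0.16 in spleen (adjusted p = 0.0111). The GS and BS kidney libraries alone gave 0.45 and 0.47, neither past the threshold. Others that rose in both organs were Uqcrfs1, the Rieske iron-sulfur protein of complex III, Atp5c1, the central stalk subunit of complex V, Atp5o, part of its peripheral stalk, and Ndufs4, an accessory subunit of complex I. Cox7b, a small subunit of complex IV, was a further one. In kidney the libraries of these further genes overlapped between cDC1 and cDC2. Of the genes called higher in kidney cDC1, only Atp5b and Uqcrc2 averaged 10 CPM or more there without overlap.

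Atp5sl went the other way. It ranged from 27.9 to 66.9 CPM with a median of 33.1 in kidney cDC1, against 76.2, 81.9, 66.7, 80.5 and 75.8 CPM in kidney cDC2, and the single overlap was between the 2 libraries standing apart. It had 30.4, 20.9 and 20.7 CPM in spleen cDC1, against 47.2, 43.0 and 41.4 CPM in spleen cDC2. The log2 fold was -0.94 ± 0.18 in kidney (adjusted p = 0.000129) and -0.87 ± 0.24 in spleen (adjusted p = 0.00902). Sdha, the flavoprotein of complex II, and Ndufs1 and Ndufv1, which carry electrons in complex I, had log2 folds of -0.07 to 0.19 in the pair of organs and did not pass the test.

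All 28 kidney calls and all 15 spleen calls were also made, in the same direction, under transcript-length scaling, without the 2 libraries standing apart, and with both changes together. Under length scaling 35 were higher and 2 lower in kidney, where 31.3% of all genes were called, and 26 higher and 1 lower in spleen, where 22.9% were, with medians of 0.28 and 0.30. For the difference between the organs length scaling gave 0 calls, where 7.93% of all genes were called. The kidney count was sensitive to single libraries: it was 52 higher and 1 lower without cDC2 replicate 3, 12 and 2 without cDC1 replicate 4, 14 and 2 without cDC2 replicate 1, and 15 and 2 without cDC2 replicate 4. The GS kidney libraries alone gave 2 calls, both higher, and the BS ones alone gave 29 higher and 1 lower. The spleen count fell to 8 higher and 1 lower without cDC1 replicate 1. Beside these counts, summed cell-cycle genes were at 1653 ± 165 CPM in kidney cDC1 and 946 ± 208 CPM in kidney cDC2. Of these genes 8 of 15 were higher, where 12.5% of all genes were. Spleen cDC1 and cDC2 held 1058 ± 169 and 1113 ± 104 CPM with 0 of 15 called, where 9.90% of all genes were higher and 10.7% lower. The part of cycling cells in the kidney result was not tested.

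**Figure D2:**
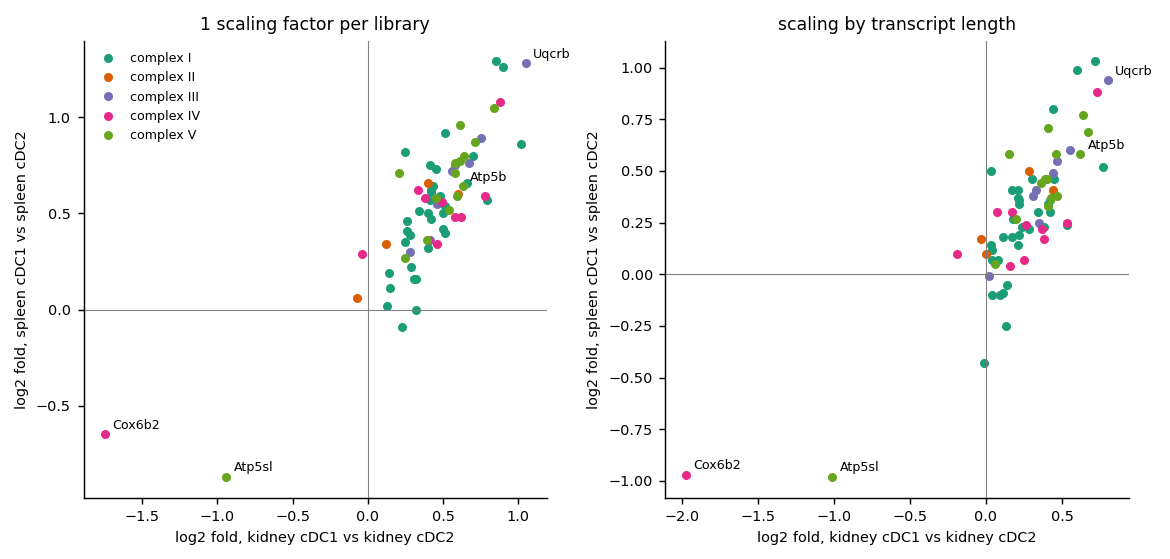
Log2 fold of cDC1 over cDC2 in kidney (x axis) and spleen (y axis) for the 73 subunit genes that averaged 3 CPM or more, with TMM scaling and with transcript-length scaling added. Atp5b lies at 0.63 and 0.64, and Atp5sl lies at -0.94 and -0.87 under TMM scaling.

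Promoters of these genes are known for motifs of NRF1, of ETS factors such as GABP, and of YY1. RefSeq promoters on GRCm38.p6, which span 250 bases before to 50 after a gene's start, were matched for 66 of the 84 symbols. Searched on both strands, the NRF1 motif core CGCANGCG was in a promoter of 37.9% of these symbols, against 9.22% of all 27025 symbols. These letters are the inner part of a longer form of the motif and were shortened after the matches of that form had been seen, and the shorter letters match more promoters of members and of all genes. The ETS motif CCGGAAG was in 24.2% against 9.93%, and the YY1 motif AANATGGC in 24.2% against 6.96%. At least 1 of the motifs was in 68.2% against 22.4%, and the median GC content was 57.3% against 52.7%. A match is a description of the letters only. Below are the 100 bases before the start of 3 genes, shown because together they hold each motif and because these genes rose in cDC1 or RPM: Sdhd at chr9:50603850-50603949, Atp5c1 at chr2:10080433-10080532 and Atp5j at chr16:84834977-84835076, all on the minus strand, with the motif letters in capitals.
Sdhd: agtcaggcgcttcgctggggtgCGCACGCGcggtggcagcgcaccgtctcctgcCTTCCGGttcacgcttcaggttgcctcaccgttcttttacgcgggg
Atp5c1: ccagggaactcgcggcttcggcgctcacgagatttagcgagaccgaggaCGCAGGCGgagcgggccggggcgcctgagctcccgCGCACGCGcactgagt
Atp5j: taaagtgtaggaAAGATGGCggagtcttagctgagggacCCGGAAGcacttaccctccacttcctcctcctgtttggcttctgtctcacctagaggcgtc
Sdhd holds an NRF1 core and an ETS motif, the ETS one on the other strand, Atp5c1 an NRF1 core at each of 2 places, and Atp5j a YY1 and an ETS motif. Atp5c1 and Atp5j each have 2 listed promoters, and the one with more matches in this stretch is shown. In the other Atp5c1 promoter the only match lies 27 bases after the start. Atp5j shares its start region with Gabpa, a gene on the opposite strand that itself encodes an ETS factor.

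Red pulp macrophages had more of many subunit mRNAs than spleen cDC2, most of all of complex II. In the main test few of these genes differed between RPM and the F4/80hi YFP- macrophages of kidney, Cox5a and Sdhc most clearly. In RPM 28 of 79 genes were higher and 1 lower than in spleen cDC2, where 20.6% of all genes were higher and 19.5% lower, and the median log2 fold was 0.63. Of complex II 3 of 4 genes rose, of complex I 14 of 36, of complex IV 5 of 15, of complex III 3 of 8 and of complex V 3 of 16. As a share of the summed TPM of all 84 genes, complex II held 5.40 ± 0.70% in RPM and 3.77 ± 0.34% in spleen cDC2, whereas complex V held 24.5 ± 0.6% and 29.2 ± 0.4% (SD, n = 3 each).

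Sdhc, 1 of the membrane anchors of complex II, had 339, 266 and 262 CPM in RPM, against 74.4, 67.7 and 71.9 CPM in spleen cDC2. Every RPM library stood well above every spleen cDC2 library. The log2 fold was 2.02 ± 0.25 (adjusted p = 1.82e-07). Sdhb, the iron-sulfur subunit, rose with a log2 fold of 1.15 ± 0.28 (adjusted p = 0.0014) and Sdhd, the other anchor, with 1.05 ± 0.23 (adjusted p = 0.000534). Sdha had 0.24 ± 0.13 and did not pass the test (adjusted p = 0.141).

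Cox5a, a subunit of complex IV, had 553, 320 and 373 CPM in RPM, against 155, 150 and 174 CPM in spleen cDC2, with no overlap. The log2 fold was 1.38 ± 0.29 (adjusted p = 0.000392). Ndufs8, an iron-sulfur subunit of complex I, had 284, 178 and 158 CPM in RPM, against 87.8, 94.4 and 89.7 CPM in spleen cDC2 (log2 fold 1.19 ± 0.30, adjusted p = 0.00201). Uqcr11 of complex III and Ndufa5 and Ndufa12 of complex I rose with log2 folds of 1.09 to 1.26, though Uqcr11 and Ndufa12 are among the genes whose multimapping makes the level uncertain. Atp5b had a log2 fold of 0.13 ± 0.12 and did not pass the test (adjusted p = 0.425). Cox6b2 was the gene that fell, with a log2 fold of -1.87 ± 0.72 (adjusted p = 0.0377), from low levels in both populations.

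Of the 29 calls 25 were also made, in the same direction, under length scaling, without the 2 libraries standing apart and with both, 24 higher and Cox6b2 lower. Length scaling alone gave 29 higher and 5 lower, where 41.6% of all genes were called. Leaving out RPM replicate 1 gave 12 higher and 2 lower, and leaving out any 1 spleen cDC2 library gave 16 higher and 0 or 1 lower. Summed markers of red cells were at 58.3 ± 47.1 CPM in RPM and 0.135 ± 0.021 CPM in spleen cDC2, with 6 of 10 markers at 0 reads in all RPM libraries, and summed cell-cycle genes at 218 ± 57.7 and 1113 ± 104 CPM. Their part in the result was not tested.

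F4/80hi YFP- macrophages of kidney were set against RPM as the other macrophage without YFP. Of 79 genes 6 were lower and 0 higher than in RPM, a smaller share than the 13.5% of all genes that were lower. Cox5a had 96.4, 123 and 103 CPM in F4/80hi YFP- cells, so every one of these libraries was below every RPM library (log2 fold -1.95 ± 0.30, adjusted p = 8.92e-06). Sdhc had 119, 111 and 99.98 CPM there, again without overlap (log2 fold -1.39 ± 0.25, adjusted p = 7.18e-05). Among the others were Ndufs8 (log2 fold -0.80 ± 0.30), Ndufb2 (-0.94 ± 0.36) and Cox4i2 (-4.72 ± 1.48), with adjusted p of 0.0429, 0.0483 and 0.0204. All 6 were also lower under length scaling and without the 2 libraries standing apart, where the counts were 19 and 23 lower, each with 1 higher, and length scaling called 30.4% of all genes. Cox5a and Sdhc passed without each single library in turn, and Ndufb2 and Ndufs8 did not. The count was 2 lower and 1 higher without RPM replicate 1, 3 lower without F4/80hi YFP- replicate 1, and 2 lower without replicate 3. Summed tubule markers were at 736 ± 298 CPM in F4/80hi YFP- cells and 61.6 ± 24.7 CPM in RPM, with 0 and 7 of 15 markers at 0 reads, and their part was not tested.

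The difference between the organs was itself tested, as the macrophage to cDC2 log2 fold in kidney (F4/80hi YFP-) minus that in spleen (RPM). It was negative and passed the test for 57 of 79 genes, where 16.7% of all genes did so in this direction, with a median of -1.31. Cox5a had -2.44 ± 0.41 (adjusted p = 3.97e-05), Sdhc -2.33 ± 0.34 (adjusted p = 6.62e-06), Ndufs8 -2.01 ± 0.41 (adjusted p = 0.000502), Atp5g3 -1.77 ± 0.41 (adjusted p = 0.00158) and Ndufb8 -1.75 ± 0.52 (adjusted p = 0.0125). With length scaling 20 genes were called, all negative, with a median of -0.40, where 23.7% of all genes were called. With both changes 15 were, and 14 genes, among them Cox5a, Sdhc and Ndufs8, were called in all 4 settings. The count was 36 without kidney cDC2 replicate 3, 29 without RPM replicate 1 and 36 without F4/80hi YFP- replicate 1. Other genes of like transcript length were negative too: the median difference was -1.44 for subunit genes and -0.84 for other genes of up to 600 nucleotides, -1.41 and -1.13 from 600 to 1000 nucleotides, and -0.94 and -0.66 from 1000 to 2000 nucleotides. Written another way, the tested difference is the log2 fold of F4/80hi YFP- over RPM minus that of kidney over spleen cDC2. In the GS libraries alone the medians of these parts were -0.3 and 0.98, so the cDC2 part was the larger.

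**Figure D3:**
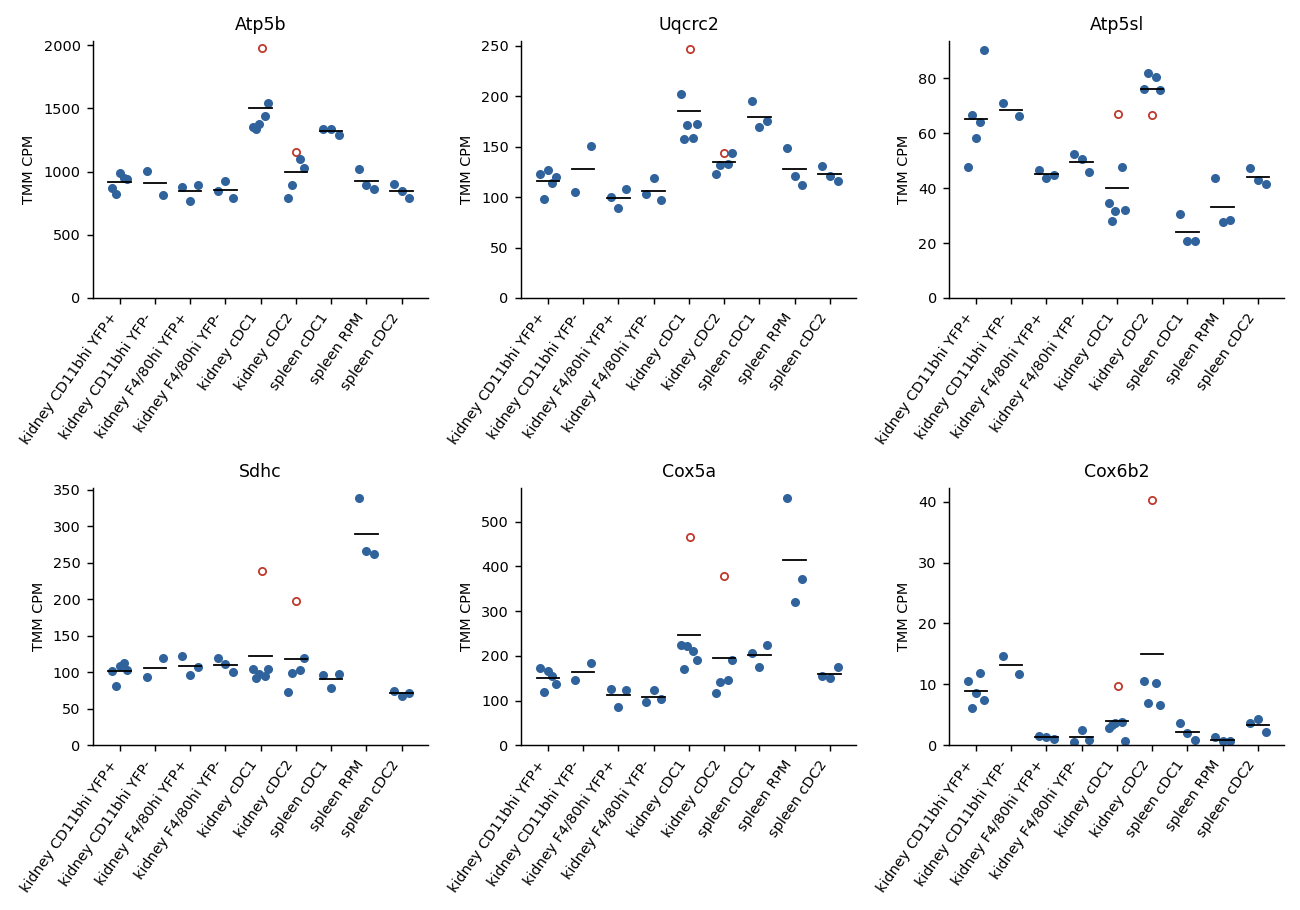
TMM-scaled CPM of Atp5b, Uqcrc2, Atp5sl, Sdhc, Cox5a and Cox6b2 in each library, by group, with bars at the group means and the 2 libraries standing apart as open red circles. The 3 RPM libraries lead for Sdhc, at 262 to 339 CPM, and for Cox5a 1 RPM library leads at 553 CPM, while cDC1 libraries lead for Atp5b.

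Among YFP+ kidney cells, many of these genes were lower in F4/80hi macrophages than in cDC2, but so were short transcripts in general. Of 79 genes 36 were lower and 0 higher, where 17.2% of all genes were lower, with a median log2 fold of -0.66. This included 10 of 16 genes of complex V, 18 of 36 of complex I, 4 of 8 of complex III and 4 of 15 of complex IV, and 0 of 4 of complex II. Ndufa6, an accessory subunit of complex I, had 54.3, 49.99 and 70.6 CPM in F4/80hi YFP+ cells, against 81.4, 90.2, 235, 99.6 and 147 CPM in kidney cDC2. The groups did not overlap, and the log2 fold was -1.40 ± 0.26 (adjusted p = 9.32e-05), or -1.0 without the 2 libraries standing apart (adjusted p = 0.000849). Cox6b2 had 1.55, 1.33 and 0.978 CPM in F4/80hi YFP+ cells, against 10.6, 7.001, 40.3, 10.2 and 6.58 CPM in kidney cDC2, without overlap. Its log2 fold was -3.75 ± 0.73 (adjusted p = 0.000198), or -2.56 without the 2 libraries standing apart (adjusted p = 0.00201). Uqcrfs1 fell by 0.89 ± 0.21 on the log2 scale (adjusted p = 0.00136), and Atp5h, a peripheral stalk subunit of complex V, by 1.01 ± 0.25 (adjusted p = 0.00216). Multimapping makes the level of Atp5h uncertain.

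With length scaling the count of F4/80hi YFP+ cells against kidney cDC2 was 17 lower and 2 higher with a median of -0.08, where 29.3% of all genes were called. Without the 2 libraries standing apart it was 11 lower and 1 higher, and 9 genes were lower in all 4 settings: Atp5c1, Atp5h, Atp5sl, Cox6b2, Cox7a2l, Ndufa6, Ndufv2, Uqcrc2 and Uqcrfs1. It was 9 without kidney cDC2 replicate 3, 10 without F4/80hi YFP+ replicate 2 and 20 without F4/80hi YFP+ replicate 1. By transcript length, the median log2 fold was -0.73 for subunit genes and -0.79 for other genes of up to 600 nucleotides. From 600 to 1000 nucleotides the medians were -0.65 and -0.6, and from 1000 to 2000 nucleotides -0.63 and -0.26. Summed tubule markers were at 540 ± 372 CPM in F4/80hi YFP+ cells and 145 ± 143 CPM in kidney cDC2, with 0 and 1 of 15 markers at 0 reads, B-cell markers at 135 ± 19.3 and 55.6 ± 12.3 CPM, with 1 and 0 of 6 at 0 reads, and neutrophil markers at 84.6 ± 17.2 and 0.780 ± 0.685 CPM, with 3 and 4 of 6 at 0 reads. Cell-cycle genes were at 364 ± 146 CPM in F4/80hi YFP+ cells and 946 ± 208 CPM in kidney cDC2, and the part of these lists in the result was not tested. In CD11bhi YFP+ cells 0 of 79 genes were called against kidney cDC2 by edgeR and 0 by DESeq2, with 2 at an unadjusted p under 0.05, where 3.67% of all genes were called, and the median log2 fold was 0.13. The sign of that median rests on the prefix term: without the term the median was -0.37, also with 0 calls. That contrast gave 1 gene higher under length scaling, where 5.12% of all genes were called, and likewise without the 2 libraries standing apart, and without kidney cDC2 replicate 3 alone.

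CD11bhi YFP+ cells had 20 of 79 genes higher than F4/80hi YFP+ cells and 0 lower, where 10.9% of all genes were higher, with a median log2 fold of 0.81. The 2 populations share no name prefix (BS for CD11bhi, GS for F4/80hi), so this contrast rests on a prefix term estimated from kidney dendritic cells, and without that term 1 gene was called. Cox7a2l had 53.1, 48.8, 50.5, 57.6 and 48.5 CPM in CD11bhi YFP+ cells, against 43.9, 35.7 and 35.004 CPM in F4/80hi YFP+ cells, without overlap (log2 fold 0.86 ± 0.27, adjusted p = 0.0309). Atp5sl had 47.6, 66.5, 58.3, 64.0 and 90.2 CPM in CD11bhi YFP+ cells, against 46.4, 43.8 and 44.7 CPM in F4/80hi YFP+ cells (log2 fold 0.84 ± 0.28, adjusted p = 0.037). Both lost the call under length scaling (adjusted p = 0.0982 and 0.0951), and multimapping makes the level of Cox7a2l uncertain. Only Atp5c1 and Ndufv2, a flavoprotein-part subunit of complex I, were called in all 4 settings. Other short transcripts were higher too: the median log2 fold was 0.91 for subunit genes and 0.81 for other genes of up to 600 nucleotides. From 600 to 1000 nucleotides the medians were 0.78 and 0.71, and from 1000 to 2000 nucleotides 0.7 and 0.39. The count was 4 with length scaling, where 16.1% of all genes were called, 4 without the 2 libraries standing apart, 3 without F4/80hi YFP+ replicate 2, 12 without replicate 1, and 13 without CD11bhi YFP+ replicate 1 or 3. Beside it, 14 of 15 cell-cycle genes were higher in CD11bhi YFP+ cells. Summed tubule markers were at 59.5 ± 18.1 CPM in CD11bhi YFP+ cells and 540 ± 372 CPM in F4/80hi YFP+ cells, B-cell markers at 47.7 ± 4.64 and 135 ± 19.3 CPM, and neutrophil markers at 15.2 ± 2.50 and 84.6 ± 17.2 CPM. The part of these lists in the result was not tested.

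Kidney dendritic cells had higher values than their spleen counterparts for most of these genes, but so did short transcripts in general. In cDC2 60 of 79 genes were higher in kidney and 0 lower, where 31.0% of all genes were called in either direction, with a median log2 fold of 0.94. In cDC1 it was 50 and 0, where 13.2% of all genes were higher, with a median of 0.86. Ndufb10, an accessory subunit of complex I, had 92.4, 101, 239, 110 and 113 CPM in kidney cDC2, against 61.4, 68.5 and 66.2 CPM in spleen cDC2. The groups did not overlap, and the log2 fold was 1.24 ± 0.26 (adjusted p = 0.000511). It ranged from 102 to 281 CPM with a median of 131 in kidney cDC1, against 90.2, 76.8 and 83.96 CPM in spleen cDC1, also without overlap, with a log2 fold of 1.14 ± 0.26 (adjusted p = 0.00209).

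By transcript length, the median log2 fold of kidney over spleen cDC2 was 1.05 for the 32 subunit genes of up to 600 nucleotides and 0.87 for the 344 other genes of that length. From 600 to 1000 nucleotides the medians were 1.01 and 0.80, from 1000 to 2000 nucleotides 0.72 and 0.54, and from 2000 to 4000 nucleotides 0.14 and -0.02. Other genes over 4000 nucleotides, a class with no subunit gene, had a median of -0.28. Length scaling left 11 higher and 2 lower in cDC2, where 26.5% of all genes were called, and 3 higher and 0 lower in cDC1, where 15.9% were. Without the 2 libraries standing apart the counts were 23 and 3, all higher, and with both changes 3 higher and 4 lower in cDC2 and 0 and 2 in cDC1. Atp5sl, Ndufa6 and Ndufa12 were higher in kidney cDC2 in all 4 settings, and no gene was in cDC1. The cDC1 count was 2 without kidney cDC1 replicate 4, 7 without spleen cDC1 replicate 2, 25 without spleen cDC1 replicate 3 and 30 without spleen cDC1 replicate 1. The cDC2 count was 26 without kidney cDC2 replicate 3, and 34, 38 and 39 without spleen cDC2 replicate 1, 2 or 3. Summed tubule markers were at 145 ± 143 CPM in kidney cDC2 and 6.23 ± 0.801 CPM in spleen cDC2, with 1 and 11 of 15 markers at 0 reads, and at 166 ± 335 CPM in kidney cDC1 and 7.75 ± 1.60 CPM in spleen cDC1, with 1 and 10 at 0 reads. Endothelial markers were at 34.6 ± 5.95 CPM in kidney cDC2 and 106 ± 7.51 CPM in spleen cDC2, and at 10.7 ± 2.49 CPM in kidney cDC1 and 105 ± 1.77 CPM in spleen cDC1. B-cell markers were at 55.6 ± 12.3 CPM in kidney cDC2 and 325 ± 115 CPM in spleen cDC2, and at 16.8 ± 5.36 CPM in kidney cDC1 and 72.9 ± 16.6 CPM in spleen cDC1. The part of these lists was not tested.

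For cDC1 against cDC2, other genes of up to 2000 nucleotides had smaller medians than for kidney over spleen cDC2. Subunit genes were above other genes in each class in both kinds of comparison. In kidney the medians of subunit genes were 0.54, 0.42, 0.44 and 0.27 from the shortest class to that of 2000 to 4000 nucleotides, against 0.06, 0.19, 0.09 and -0.05 for other genes. In spleen they were 0.60, 0.47, 0.54 and 0.22, against 0.13, 0.26, 0.09 and -0.06.

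**Figure D4:**
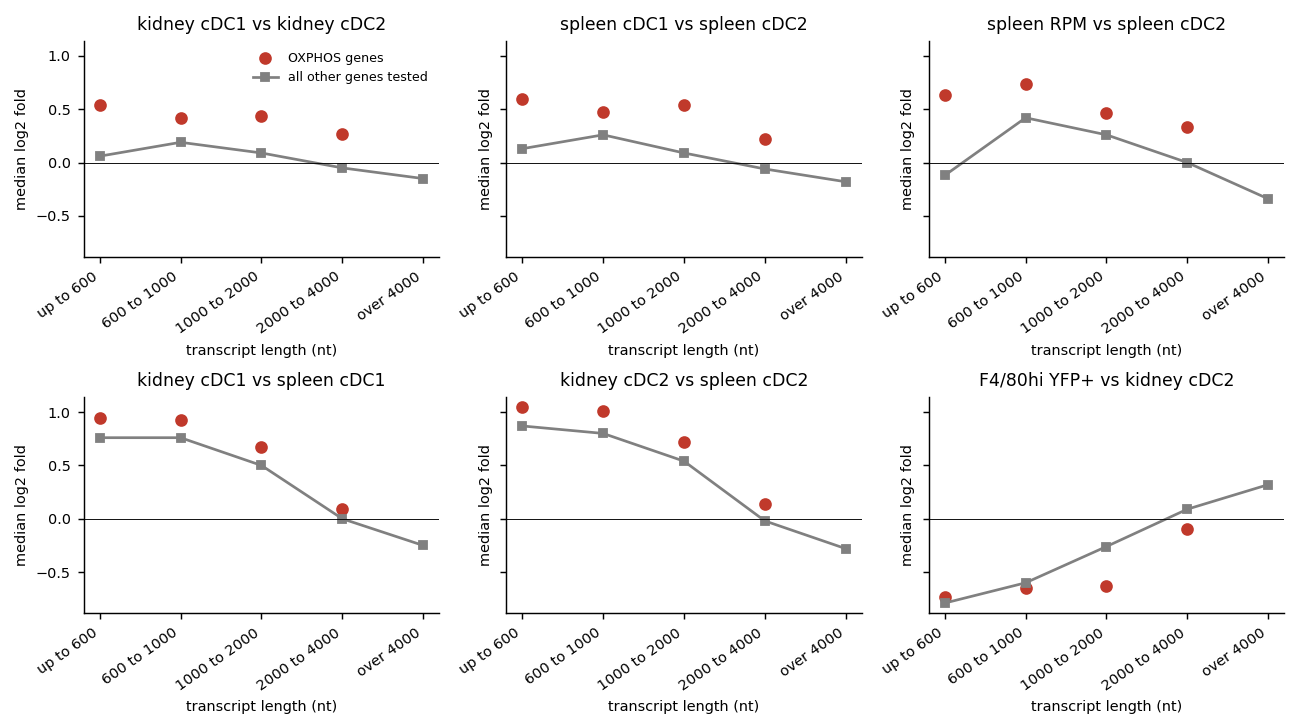
Median log2 fold of subunit genes and of all other genes tested, by class of transcript length in nucleotides, in 6 comparisons. Medians of both sets fall with length in kidney over spleen cDC2, from 1.05 and 0.87 in the shortest class. Subunit genes stand above other genes in each class that holds them, there and in cDC1 over cDC2. In cDC1 over cDC2 other genes of the shortest class have medians of 0.06 in kidney and 0.13 in spleen.

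No subunit gene was called between YFP+ and YFP- cells of the same gate, by edgeR or by DESeq2. In F4/80hi cells 0 of 79 genes were called, where 0.00701% of all genes were, with a median log2 fold of 0.00 and 0 genes at an unadjusted p under 0.05. Atp5b, for example, had 877, 771 and 896 CPM in F4/80hi YFP+ cells, against 847, 923 and 788 CPM in F4/80hi YFP- cells, and the groups overlapped. In CD11bhi cells 0 were called, where 6.87% of all genes were, with a median of 0.02 and 2 genes at an unadjusted p under 0.05. Leaving out CD11bhi YFP+ replicate 4 or 5 gave 1 call. With length scaling the F4/80hi contrast had 0 calls, and the CD11bhi contrast 1 gene higher and 4 lower, where 14.9% of all genes were called, and without the 2 libraries standing apart 1 higher. The YFP- side of this contrast has 2 libraries.

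Single genes of the pathway outside the subunits also differed. In cDC1, Atpif1, which encodes an inhibitor of complex V, averaged 597 ± 224 CPM in kidney cDC1 (n = 6) and 195 ± 90.9 CPM in kidney cDC2 (n = 5), with a log2 fold of 1.72 ± 0.18 (adjusted p = 1.39e-08). It averaged 463 ± 78.9 CPM in spleen cDC1 and 97.1 ± 3.70 CPM in spleen cDC2 (n = 3 each), with a log2 fold of 2.25 ± 0.25 (adjusted p = 3.68e-08). Tmem70, an assembly factor of complex V, rose as well, by 1.05 ± 0.12 in kidney and 1.19 ± 0.16 in spleen on the log2 scale (adjusted p = 6.95e-08 and 2.04e-06). Of 40 assembly factors 6 were higher and 1 lower in kidney cDC1, and 4 higher and 1 lower in spleen cDC1, shares near the 12.5% and 9.90% of all genes that were higher. Of 14 genes of the tricarboxylic acid cycle, 3 were higher and 1 lower in kidney, and 2 higher and 1 lower in spleen.

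Members of that cycle moved apart from each other. Cs, citrate synthase, rose in cDC1 of both organs (log2 fold 0.45 ± 0.09 and 0.44 ± 0.12, adjusted p = 0.000278 and 0.00722). Mdh2, the mitochondrial malate dehydrogenase, averaged 345 ± 44.4 CPM in spleen cDC1 and 305 ± 121 CPM in RPM, against 1309 ± 346 CPM in spleen cDC2 (n = 3 each). Its log2 fold over spleen cDC2 was -1.92 ± 0.32 for cDC1 (adjusted p = 3.34e-05) and -2.10 ± 0.32 for RPM (adjusted p = 5.12e-06). Fh1, fumarate hydratase, was at 55.1 ± 11.7 CPM in F4/80hi YFP+ cells (n = 3), against 228 ± 33.5 CPM in kidney cDC2 (n = 5), with a log2 fold of -2.15 ± 0.18 (adjusted p = 1.96e-10).

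In RPM, Ppargc1b, a coactivator of mitochondrial gene programmes, averaged 32.6 ± 10.7 CPM, against 0.305 ± 0.464 CPM in spleen cDC2 (n = 3 each, log2 fold 6.74 ± 1.15, adjusted p = 2.35e-05). This gene does not stand for its kind. The summed level of 14 regulators of mitochondrial biogenesis overlapped between RPM and spleen cDC2 libraries. The mean of that sum was higher in the F4/80hi YFP+ and YFP- groups of kidney than in RPM. Etfb, part of the flavoprotein that passes electrons from fatty acid oxidation to the chain, averaged 441 ± 130 CPM in RPM, against 75.2 ± 4.89 CPM in spleen cDC2 (log2 fold 2.55 ± 0.33, adjusted p = 3.8e-07). Of 40 assembly factors 12 were higher and 1 lower in RPM. The mitochondrial ribosome, built in the same organelle, had 17 of 77 genes higher in RPM and 0 lower, while the cytosolic ribosome had 2 of 88 higher and 20 lower, where 20.6% of all genes were higher and 19.5% lower, so the 17 and the 20 were near the share of all genes. Against kidney cDC2, F4/80hi YFP+ cells had 35 of 77 mitochondrial and 57 of 88 cytosolic ribosome genes lower and 23 of 39 proteasome genes lower, where 17.2% of all genes were lower. The medians were -0.65, -1.13 and -0.67 beside the -0.66 of the subunit genes. In kidney cDC1 over cDC2 the proteasome had 22 of 39 genes higher and the mitochondrial ribosome 21 of 77, with medians of 0.45 and 0.41 beside 0.45. The cytosolic ribosome had 4 of 88 higher and 4 lower with a median of 0.18. Of all genes 12.5% were higher and 15.4% lower in this comparison.

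**Figure D5:**
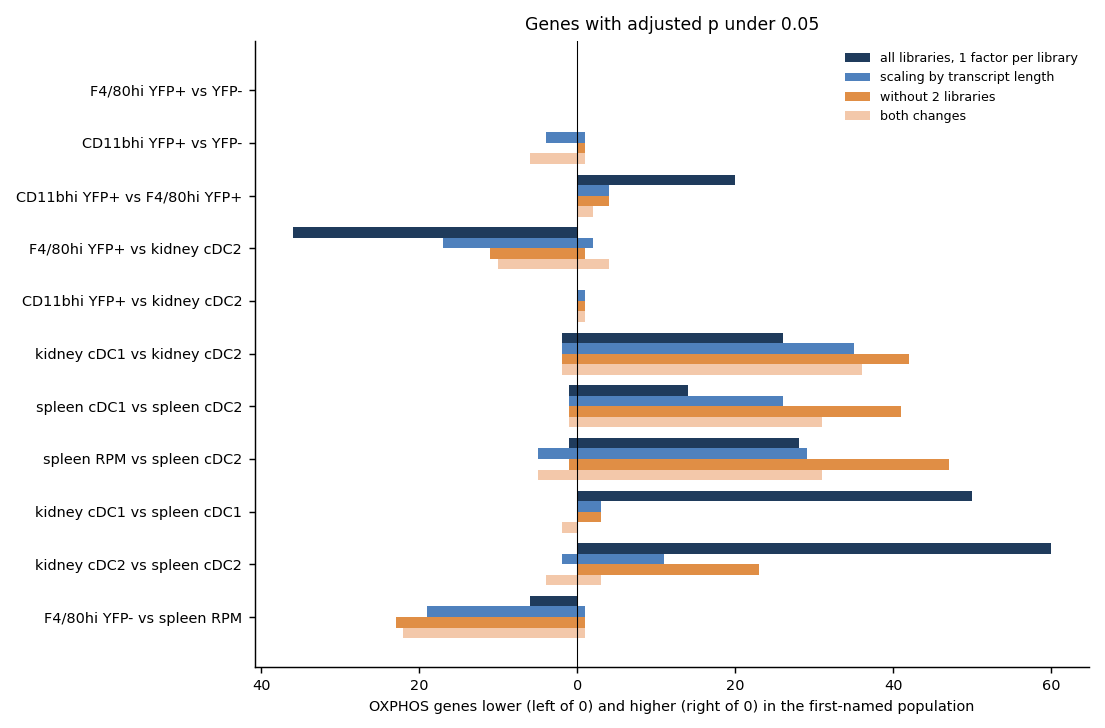
Number of the 79 tested subunit genes called higher (to the right) or lower (to the left) in each of 11 comparisons under 4 settings: TMM scaling, transcript-length scaling, without the 2 libraries standing apart, and both changes. The counts for cDC1 over cDC2 and for RPM over spleen cDC2 stay at 14 or more in every setting, while those of kidney over spleen drop from 60 and 50 to 7 and 2 with both changes.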

How the data were processed

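PolyA RNA of sorted cells was isolated with the PicoPure kit, amplified with the SMARTseq v4 kit and made into libraries with the MicroPlex v2 kit, per the labels' protocols. STAR and RSEM were run on mm10 per the submitters' processing notes, with versions not given in the sources used here. The authors deposited STAR read counts per gene, of which the unstranded ones were used. They also deposited RSEM expected counts, rounded here to whole numbers, and RSEM TPM values, both used as alternatives, TPM also for levels per length. No columns of other samples were present.

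Counts were fitted over all 33 libraries with edgeR 4.0.16 (R 4.3.3): TMM scaling, filterByExpr with a count minimum of 10 and a total minimum of 15, group and name prefix as terms, quasi-likelihood tests of 11 contrasts and 2 differences of contrasts, with p-values adjusted over 14258 genes by Benjamini-Hochberg and a call at 0.05. The test was also run on simulated counts with known folds. No single library stood apart in that simulation, so it cannot show how the test handles such libraries. A SE is the log2 fold over the root of its F statistic. CPM are TMM-scaled. Per comparison the text names called genes whose libraries did not overlap and whose higher group averaged 10 CPM or more, up to 8 per direction (5 for differences of contrasts), plus a core of subunits and paralogs; Atp5sl, Cox6b2 and Cox4i2 were also named where they fell outside this, after their values were seen. For genes named by the rule of no overlap, that lack of overlap follows from the choice. Genes of other lists were described in part. The values of 1 subunit gene are not reported here.

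Alternatives were RLE scaling, DESeq2 1.42.0, no prefix term, no filter, a limit of 1 on the log2 fold, RSEM counts, limma 3.58.1 on log2(TPM + 1) and log2(TPM + 0.1), the compared groups alone, each prefix alone, a block by the SR code in the sample names, and leaving out each library. Transcript-length scaling (a lowess offset per library with a span of 0.3) and leaving out the 2 libraries standing apart were added after seeing the data. By its construction this scaling removes any shift that subunit genes share with genes of their length. The SR code pairs the libraries where every pair's residuals correlated above 0.1, which held in 3 contrasts: F4/80hi YFP+ over YFP- (0.112 to 0.426), spleen cDC1 over cDC2 (0.126 to 0.299) and kidney over spleen cDC2 (0.101 to 0.124). The labels do not say what the codes or prefixes mean. Libraries of a group were compared in 51 pairs, and the lowest chi-square per gene was 16.1, so none were counted as duplicates. The genes and lists were chosen with earlier results of these data known.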

Additional observations from a re-analysis of the deposited data

Results flagged for a closer look

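The sums of the subunit genes were screened for a library far from the rest of its group in 36 tests over groups of 4 to 10 libraries. These groups were kidney cDC1, kidney cDC2 and CD11bhi YFP+ cells. Chance flags about 1 in 20 of independent tests, but these sums share libraries and genes and are not independent. In kidney cDC1, replicate 4 was the high library each time: 23949 CPM and 35544 TPM over all subunit genes, 8066 CPM and 11492 TPM for complex I, 1517 CPM for complex II, 2780 CPM and 4202 TPM for complex III, 4673 CPM and 9222 TPM for complex IV, and 6914 CPM for complex V. This library also had the highest summed tubule markers of the kidney cDC1, at 850 CPM, and a read-weighted transcript length of 2031 nucleotides, and the part of either was not tested. In kidney cDC2, replicate 3 was high for complex IV, at 3735 CPM. In CD11bhi YFP+ cells, replicate 2 was low for complex V, at 2429 CPM.

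The macrophage to cDC2 fold differed between kidney and spleen for 57 of 79 subunit genes by the test of that difference, all negative, where 16.7% of all genes were called in this direction. With transcript-length scaling 20 were called, where 23.7% of all genes were, and the median over other genes of up to 600 nucleotides was also negative, at -0.84. The largest among the named ones, as differences of log2 folds, were Cox5a at -2.44, Sdhc at -2.33, Ndufs8 at -2.01, Atp5g3 at -1.77 and Ndufb8 at -1.75.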

How the results depend on the processing

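For named subunit genes, 55 results were recomputed under each alternative, giving 1155 values, of which 997 stayed on their side of the threshold, 158 lost the call and 0 turned direction. Counts of called genes moved more, and the cause was not tested beyond what an alternative's construction shows (fewer libraries, a limit on the fold). The replicate block by SR code gave 33 for CD11bhi YFP+ over F4/80hi YFP+ cells, which share no code. It gave 10 (9 lower) for F4/80hi YFP- over RPM. These share their codes, with residual correlations of 0.132, 0.022 and 0.264, so not every pair was above 0.1. The block moved no other count by over 1.5 times. CD11bhi YFP+ over YFP-: RSEM and both TPM fits gave 1, length scaling 5, leaving out the 2 libraries 1, both changes 7. CD11bhi YFP+ over F4/80hi YFP+: RLE 13, no prefix term 1, both TPM fits 12, the compared groups alone 3, length scaling 4, without the 2 libraries 4, both changes 2, the fold limit 9. F4/80hi YFP+ over kidney cDC2: no prefix term 10, TPM + 1 gave 16 and TPM + 0.1 gave 15, the compared groups alone 4, GS alone 23, length scaling 19, without the 2 libraries 12, both 14, the fold limit 6. CD11bhi YFP+ over kidney cDC2: both TPM fits, length scaling, without the 2 libraries and both changes gave 1 each. Kidney cDC1 over cDC2: no prefix term 14, both TPM fits 55, the compared groups alone 16, GS alone 2, without the 2 libraries 44, the fold limit 3. Spleen cDC1 over cDC2: the compared groups alone 58, length scaling 27, without the 2 libraries 42, both 32, the fold limit 5. RPM over spleen cDC2: without the 2 libraries 48, the fold limit 13. Kidney over spleen cDC1: no prefix term 2, both TPM fits 11, the compared groups alone 0, GS alone 14, length scaling 3, without the 2 libraries 3, the fold limit 12, and both changes 2, both lower, so the direction turned. Kidney over spleen cDC2: no prefix term 21, the compared groups alone 7, length scaling 13, without the 2 libraries 23, the fold limit 32. There both TPM fits gave 10 with 7 lower, and both changes 7 with 4 lower, so the direction turned. F4/80hi YFP- over RPM: both TPM fits 16, length scaling 20, without the 2 libraries 24, both 23, the fold limit 3. Difference of macrophage folds between organs: no prefix term 21, TPM + 1 gave 13 and TPM + 0.1 gave 12, the compared groups alone 14, length scaling 20, both 15.

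Leaving out each library in turn gave 0 to 1 calls for CD11bhi YFP+ over YFP- and for CD11bhi YFP+ over kidney cDC2, 3 to 27 for CD11bhi YFP+ over F4/80hi YFP+, 9 to 48 for F4/80hi YFP+ over kidney cDC2, 14 to 53 for kidney and 9 to 14 for spleen cDC1 over cDC2, 14 to 33 for RPM over spleen cDC2, 2 to 62 and 26 to 63 for kidney over spleen cDC1 and cDC2, 2 to 7 for F4/80hi YFP- over RPM, and 29 to 59 for the difference of macrophage folds. F4/80hi YFP+ over YFP- and the difference of cDC1 to cDC2 folds kept 0.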
